A study of Mus musculus with 2 samples.

Results

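The imprinted growth genes described here are *H19*, *Meg3*, *Peg3*, *Mest*, *Grb10*, *Plagl1*, *Ndn*, *Igf2r* and *Dlk1*, and they were taken by name, through the gene identifiers of the counts, from single-cell RNA sequencing of the mouse retinal endothelium. All 9 were among the 22687 gene symbols of the P6 counts. At P15, 8 of them were read among 21736 symbols, and the P15 level of *H19* is not analysed here.

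An imprinted gene is transcribed mainly from the copy of one parent, under control of DNA methylation set in the egg or the sperm. Many imprinted genes act on growth before and shortly after birth, several through insulin and the insulin-like growth factors, and in many tissues their transcripts decline as growth slows. The counts of RNA molecules do not tell the parental copies apart.

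Endothelial cells came from retinas of wild-type C57BL/6 mice at postnatal day (P)6, when the retinal vessels are still spreading, and at P15, when the arterial and venous branches are established. They were sorted as CD31+CD45- and sequenced by a droplet method as 1 library for each age, with no treatment and no other genotype, and the labels used here give no number of mice. Because each age is 1 library, age and library cannot be told apart, no test across samples was possible, and every interval below is a 95% interval that covers counting error only. Levels are unique molecular identifiers (UMIs, counted RNA molecules) of a gene per 1000000 UMIs of the cells named, written as counts per 1000000 (CPM).

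The P6 library held 1984 barcodes and 13958124 UMIs and the P15 library 2141 barcodes and 11589641 UMIs, with medians of 5543.5 and 4615 UMIs per barcode, and 7 barcode sequences occurred in both. Ages were compared in the 1424 P6 and 1644 P15 cells, called filtered cells, with 200 to 3500 genes, at most 5% mitochondrial UMIs and *Hbb-bt*, *Neurod1* and *Cd63* all at 0. These limits are a reading of the exclusion criteria of the study. Published cluster labels were at hand for 1560 P6 and 438 P15 cells, of which 1399 and 409 were filtered cells, so the limits as read here also left out labelled cells. Since the clusters were drawn from the same counts, a cluster level is a description. All 8 endothelial markers examined were present in the filtered cells of both libraries, at a summed 7962 CPM at P6 and 12670 at P15. A summed list of pericyte and mural markers stood at 13.3 CPM in P6 filtered cells, with *Cspg4* at 0, and at 301 CPM in P15 filtered cells, with all 8 markers present. The other lists were also higher in P15 than in P6 filtered cells. Glial markers stood at 369 and 1227 CPM, red blood cell markers at 22.6 (with *Alas2* at 0) and 173, and pigment epithelium markers at 3.14 and 65.8 (with *Rpe65* and *Mlana* at 0 at P15). Retinal neural markers stood at 72.7 and 83.4 CPM (with *Tubb3* at 0 at P15), microglial markers at 1.70 and 6.38, and fibroblast markers at 0.785 (with *Col1a1*, *Col1a2* and *Lum* at 0) and 4.48 (with *Col1a1* at 0). *Hbb-bt* and *Neurod1* were at 0 at both ages by the filter. The part of these cells in the age ratios was not tested beyond leaving out the barcodes led by pericyte or neural markers. Among filtered cells, only 1 barcode at P6 and 7 at P15 were led by pericyte markers, and 0 by neural markers.

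*H19* and *Mest* each hold a microRNA gene, and the mature sequences are shown because the transcripts counted below are their hosts. They were read from RefSeq records of GRCm38.p6, with U for T, and capitals mark the seed, bases 2 to 8, which pairs with target RNAs. The miR-675 arms lie inside an exon of *H19* on the minus strand, at chr7:142577112-142577133 and chr7:142577078-142577099. The miR-335 arms lie in *Mest* outside its exons on the plus strand, at chr6:30741314-30741336 and chr6:30741354-30741375.
mmu-miR-675-5p: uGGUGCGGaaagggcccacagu
mmu-miR-675-3p: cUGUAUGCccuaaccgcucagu
mmu-miR-335-5p: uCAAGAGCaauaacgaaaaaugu
mmu-miR-335-3p: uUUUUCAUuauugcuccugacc
No seed was shared among the 4 arms, and the mature microRNAs themselves were not measured by these libraries.

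Promoters are shown for *Mest* and *Plagl1*, whose P15 levels stood furthest below P6, and for *Meg3*, whose UMIs lay mostly outside the barcodes led by endothelial markers. Each is the 250 bases before a RefSeq transcript start on the plus strand of GRCm38.p6, at chr6:30737800-30738049, chr10:13090582-13090831 and chr12:109540746-109540995 in that order. *Mest* and *Meg3* had further promoters, and a promoter that holds the letters marked below was picked for printing. The promoter windows that begin at chr6:30733256 (*Mest*) and chr12:109545148 (*Meg3*) held 0 matches. Capitals mark GCGGCA, which is TGCCGC read on the other strand, the letters that the imprint-keeping factor ZFP57 recognises when methylated.
Mest promoter: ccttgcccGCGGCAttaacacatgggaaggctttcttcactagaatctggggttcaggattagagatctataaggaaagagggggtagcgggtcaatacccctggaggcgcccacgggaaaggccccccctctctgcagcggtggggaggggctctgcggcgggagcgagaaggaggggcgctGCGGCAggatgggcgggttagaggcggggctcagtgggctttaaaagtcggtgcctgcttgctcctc
Plagl1 promoter: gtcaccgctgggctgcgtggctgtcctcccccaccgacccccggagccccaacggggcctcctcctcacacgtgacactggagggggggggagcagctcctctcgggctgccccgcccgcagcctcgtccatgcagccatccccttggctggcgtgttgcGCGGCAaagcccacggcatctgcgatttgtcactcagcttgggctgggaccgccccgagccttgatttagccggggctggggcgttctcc
Meg3 promoter: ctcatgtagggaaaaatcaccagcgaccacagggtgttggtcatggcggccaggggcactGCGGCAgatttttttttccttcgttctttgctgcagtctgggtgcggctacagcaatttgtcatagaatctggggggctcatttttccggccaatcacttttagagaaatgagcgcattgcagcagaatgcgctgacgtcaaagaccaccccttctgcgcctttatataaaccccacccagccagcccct
Of the 9 genes, 8 matched the promoter table, with 12 promoters of 300 bases (250 before and 50 after the start). TGCCGC occurred on either strand in 5 of the 12, one each of *Meg3*, *Plagl1* and *Grb10* and an overlapping pair of *Mest*, against 11.6% of 32851 mouse promoters of that length. The YY1 letters GCCATNTT occurred in 0 of the 12, against 6.05% of all promoters, the PLAG family core GGGGCCCC in 1, that of *Peg3*, against 1.08%, and the E-box CANNTG in 7, against 72.3%. These counts describe letters in a window and say nothing of binding.

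The question put to the 2 ages was how much of each transcript the endothelium still held at P15. *Mest*, *Grb10*, *Igf2r*, *Ndn* and *Peg3* were each lower at P15 than at P6, with intervals of the ratio below 1, and *Mest* was the lowest of them relative to P6. Of the 9 genes, 6 had a row in both libraries and at least 50 UMIs in the filtered cells of both together. Among these 6, 2 genes (*Mest* and *Peg3*) had a ratio of P15 to P6 of at most 0.5, against 5.79% of the 10972 genes that passed the same minimum, and 0 had a ratio of at least 2, against 7.25%. A ratio below 1 was found for 5 of the 6, against 40.5% of all genes. The median ratio of the 6 was 0.627, beside 1.09 over all 10972 genes.

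*Mest* (chr6:30723547-30748465, plus strand of GRCm38) encodes an enzyme-like protein of the endoplasmic reticulum, is transcribed from the paternal copy and was named for its presence in mesoderm. Filtered P6 cells held 224 *Mest* UMIs, or 29.3 CPM (25.6 to 33.4), and filtered P15 cells 33, or 4.48 CPM (3.08 to 6.29). The levels differed by a factor of 6.54 (4.53 to 9.74), with P15 the lower, and the ratio of 0.153 (0.103 to 0.221) took place 135 from the lowest among 10972 genes. A ratio of at most 0.2 was found for 1.72% of those genes.

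At least 1 *Mest* UMI was found in 13.7% of the 1424 P6 cells (11.9 to 15.6) and in 1.95% of the 1644 P15 cells (1.34 to 2.74), at medians of 4985 and 4213.5 UMIs per cell. Depth differed between the libraries, so each cell was also thinned to 3000 UMIs, which left out 179 P6 and 481 P15 cells that were shallower. The thinned shares were 7.95% of 1245 P6 cells and 1.29% of 1163 P15 cells. *Mest* overlaps *Copg2* on the other strand by 912 bases, and *Copg2* itself stood at 27.6 and 25.6 CPM, a ratio of 0.929 (0.760 to 1.14).

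*Grb10* (chr11:11930508-12038683, minus strand) encodes an adaptor that binds the insulin and insulin-like growth factor receptors and restrains their signals. It gave the most UMIs of the 9 genes, 698 in filtered P6 cells and 437 in filtered P15 cells. These are 91.3 CPM (84.6 to 98.3) and 59.3 CPM (53.9 to 65.1), a ratio of 0.650 (0.575 to 0.733). A UMI was seen in 37.0% of P6 and 22.0% of P15 filtered cells, and after thinning in 23.7% and 15.4%. The ratio was thus nearer to 1 than that of *Mest*, and the intervals of the 2 ratios do not overlap.

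*Igf2r* (chr17:12682406-12769664, minus strand) encodes the receptor that takes up IGF2 and carries it to the lysosome, which lowers the growth factor outside the cell. It stood at 31.6 CPM at P6 (242 UMIs, 27.8 to 35.9) and at 19.1 CPM at P15 (141 UMIs, 16.1 to 22.6), a ratio of 0.605 (0.488 to 0.747). The antisense RNA *Airn* (chr17:12741311-12860136, plus strand) overlaps 28354 bases of it, at the end where *Igf2r* transcription starts. Without a statement on strand, reads within that overlap cannot be told apart, while the rest of *Igf2r* lies outside *Airn*. *Airn* stood at 12.03 and 13.03 CPM, with a ratio of 1.08 (0.805 to 1.46).

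The ligand and the other receptors of the same axis had other values. *Igf2* itself had 8 UMIs in filtered P6 cells and 1 in filtered P15 cells. *Igf1r*, which signals growth, stood at 41.7 and 108 CPM, a ratio of 2.59 (2.27 to 2.96), and *Insr*, the insulin receptor, at 77.4 and 85.1 CPM, a ratio of 1.10 (0.981 to 1.23).

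*Peg3* (chr7:6703892-6730431, minus strand) encodes a large zinc finger protein, and *Ndn* (chr7:62346569-62350262, plus strand) encodes Necdin, a MAGE family protein that restrains proliferation. *Peg3* had 45 UMIs at P6 (5.88 CPM) and 20 at P15 (2.71), a ratio of 0.461 (0.258 to 0.797). The *Peg3* ratio was above 0.5 in labelled cells (0.644), without the upper limit on genes (0.572), in every barcode (0.511) and with P15 clusters weighted as at P6 (0.507). *Ndn* had 77 UMIs at P6 (10.1 CPM) and 49 at P15 (6.65), a ratio of 0.660 (0.452 to 0.957). Both were sparse, in 2.95% and 4.99% of filtered P6 cells and in 1.22% and 2.68% of filtered P15 cells.

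*Plagl1* (chr10:13060504-13131694, plus strand), a zinc finger regulator of other imprinted genes, had 19 UMIs at P6 and 3 at P15 in filtered cells and fell under the minimum of 50. *Dlk1* (chr12:109452823-109463336, plus strand), a membrane and secreted protein of progenitor cells, had 4 and 2 UMIs there. *Meg3* (chr12:109541001-109571726, plus strand), a noncoding RNA of the *Dlk1* locus, had 22 UMIs at P6 and 28 at P15, a ratio of 1.32 (0.729 to 2.42), and was the single gene of the 6 above 1. Its ratio was 0.657 without the barcodes led by pericyte or neural markers, 3.38 in labelled cells and 12.8 after thinning, so that no direction is given for it.

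**Figure D1:**
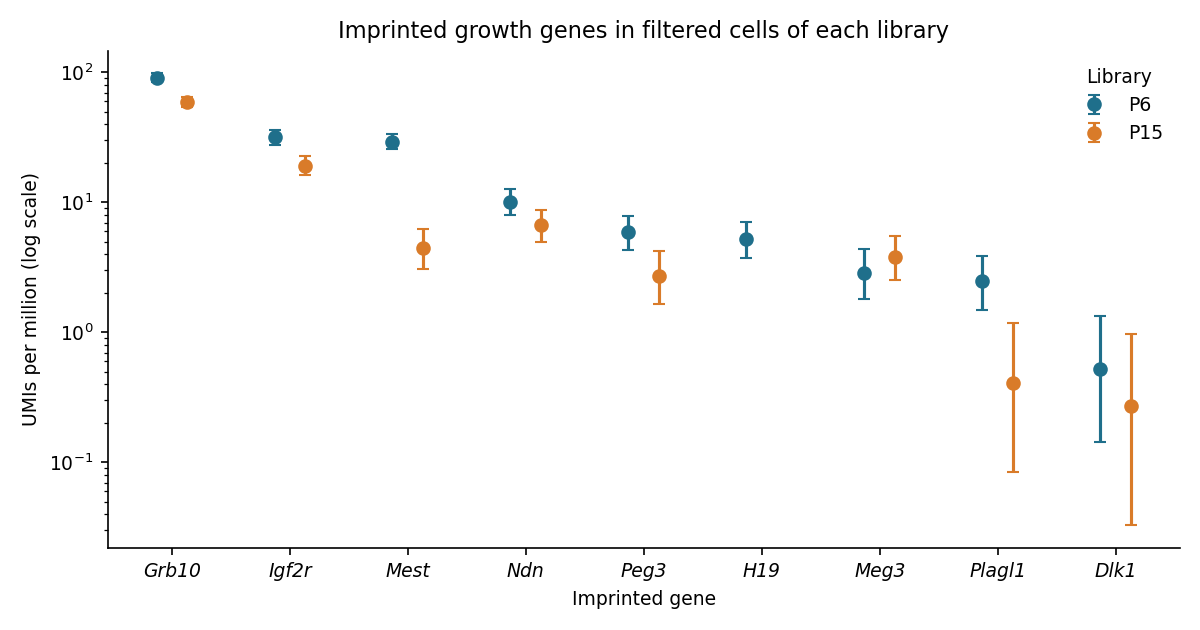
Level of each gene in CPM (log scale) in filtered cells of the P6 library (1424 cells) and the P15 library (1644 cells); points are 1 library each and bars are exact 95% Poisson intervals. *Mest* stands at 29.3 CPM at P6 and 4.48 CPM at P15, *Grb10*, *Igf2r*, *Ndn* and *Peg3* stand lower at P15 by smaller factors, the intervals of *Meg3* and *Dlk1* overlap, and *H19* is drawn for P6 alone.

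Clusters can make up different shares of the cells at the 2 ages, so the ratio was also taken within clusters, leaving out Venous, which had 2 labelled P15 cells. *Mest* was lower at P15 in 7 of 8 clusters, and in 4 of them the interval lay below 1. In Tip cells it stood at 47.4 CPM at P6 and 7.04 at P15, a ratio of 0.149 (0.0175 to 0.564), and in Cap-Venous cells at 26.3 and 5.24, a ratio of 0.199 (0.0528 to 0.533). Capillary cells held 26 UMIs at P6 and 0 at P15, a level at least 1.75-fold lower when 3 counts are taken as the floor. The Arterial cluster, with 1 UMI at each age, was the exception.

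*Grb10* was lower in 7 of 8 clusters with 1 interval below 1 (Cap-Arterial, 70.6 and 26.4 CPM), and *Igf2r* in 8 of 8 with 2 intervals below 1 (Stalk and Capillary). *Peg3* was lower in 7 and *Ndn* in 6, with no interval below 1. To use all filtered P15 cells, those without a published label were given a cluster predicted from the 15 nearest labelled cells. Labelled P15 cells, also those outside the filter, kept their published cluster, so the 2 sets of ratios share cells. Applied to labelled cells, the prediction recovered the published cluster of 75.1% of P6 and 77.4% of P15 cells. With predicted clusters, *Mest* was again lower in 7 of 8 clusters, with 5 intervals below 1, *Grb10* in 7 with 5, and *Igf2r* in 8 with 1.

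**Figure D2:**
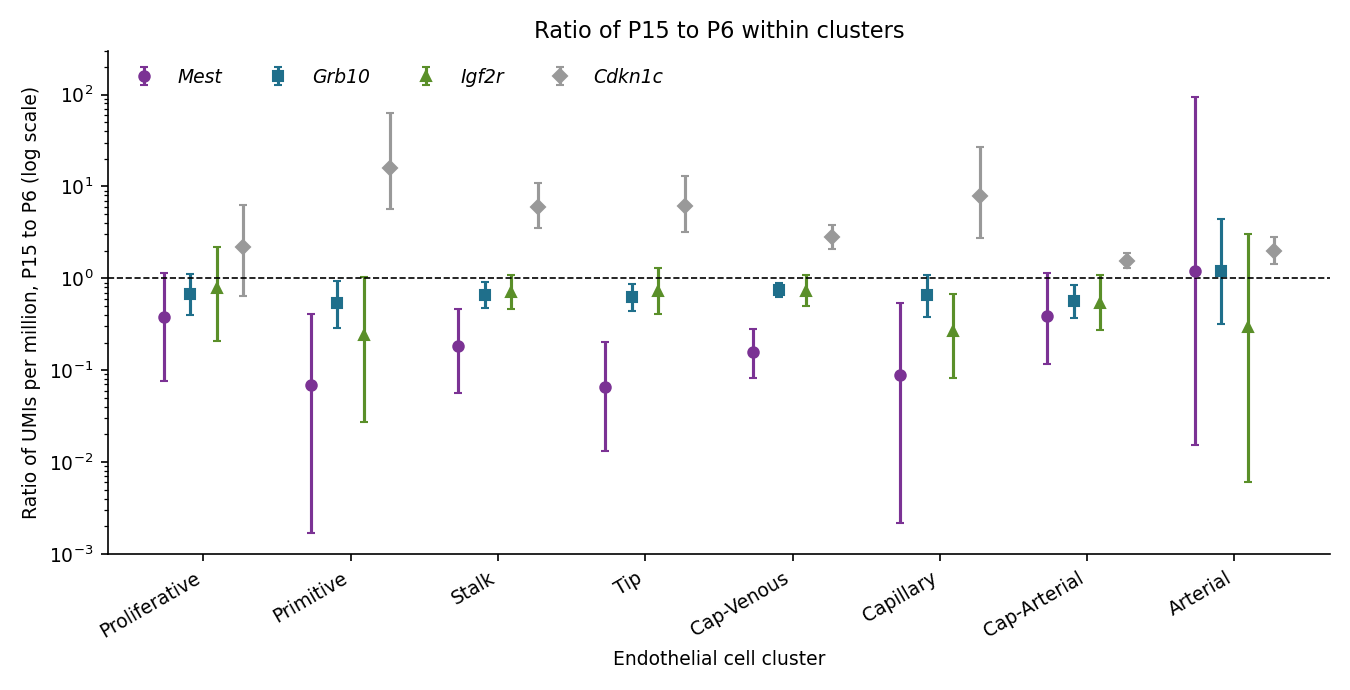
Ratio of CPM at P15 to P6 (log scale) within 8 clusters for *Mest*, *Grb10*, *Igf2r* and, for comparison, the imprinted cell cycle inhibitor gene *Cdkn1c*. P15 clusters are the published ones where a label was at hand and predicted ones elsewhere. Bars are 95% counting intervals and the dashed line marks a ratio of 1. *Mest* points lie below the line in 7 clusters, *Grb10* in 7 and *Igf2r* in 8, while *Cdkn1c* lies above it in all 8.

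Other imprinted genes were examined from a list of 33, of which 24 had a row in both libraries and 15 passed the minimum of 50 UMIs. Of these 15, 0 had a ratio of at most 0.5, 2 had a ratio of at least 2 and 6 had a ratio below 1, and their median ratio was 1.09, equal to that of all genes. The 2 were *Cdkn1c*, which encodes the cyclin-dependent kinase inhibitor p57, and *Gnas*, which encodes the stimulatory G protein alpha subunit. *Cdkn1c* stood at 40.5 and 109 CPM, a ratio of 2.70 (2.36 to 3.09), and was higher at P15 in 8 of 8 clusters, with 7 intervals above 1. *Gnas* had 41 and 93 UMIs, a ratio of 2.35 (1.61 to 3.49). The 15 genes thus lay on both sides of 1. *Sgce*, at 0.501, and *Peg12*, at 0.522, lay just above the limit of 0.5. Both lists of imprinted genes were chosen with earlier results of these data known, so no contrast between them is drawn.

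Across the labelled P6 cells, *H19* was mostly found in arterial cells. Barcodes without a label held a further 22 of the 65 P6 *H19* UMIs, 16 of them in 1 barcode, and these have no place among the clusters. *H19* (chr7:142575529-142578143, minus strand) is a maternally transcribed noncoding RNA beside *Igf2*. Arterial cells held 16 UMIs in 5 of 40 cells, or 81.0 CPM (46.3 to 132), and Cap-Arterial cells 17 UMIs in 5 of 162 cells, or 20.3 CPM (11.8 to 32.6). The other 7 clusters held 10 UMIs in 9 of 1358 cells, between 0 and 1.88 CPM, and Venous and Capillary cells held 0.

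Arterial and Cap-Arterial cells together were 12.9% of the labelled cells and held 76.7% of the 43 labelled *H19* UMIs. The level in Arterial cells was 28.3 times that of all other labelled cells (14.3 to 54.5), and in Cap-Arterial cells 6.89 times (3.51 to 13.2). In cells thinned to 3000 UMIs these ratios were 16.3 and 9.47, from 5 and 9 UMIs. With 43 UMIs, *H19* was under the minimum of 50, so these ratios enter no count of genes. The transcript was concentrated in few cells. The 3 cells with the most UMIs held 20 of the 43, and without them the Cap-Arterial ratio was 2.25 and the Arterial ratio 31.4. Of the 10 positive arterial and Cap-Arterial cells, 7 held at least 2 UMIs, against 1 of 9 elsewhere, although their median depth was the lower (4320 against 7314 UMIs).

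The summed retinal neural markers were also higher in Arterial cells, at 1215 CPM, than in all labelled P6 cells, at 63.2. *Stmn2* gave 97.1% of the 240 neural-marker UMIs of Arterial cells, while *Neurod1*, *Nrl* and *Tubb3* were at 0. The glial list stood at 1564 CPM there, all of it *Glul*. Their part in the *H19* result was not tested.

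*Cdkn1c* and *Igf2*, which lie near *H19* on chromosome 7, also led in arterial cells. *Cdkn1c* stood at 289 CPM in Arterial and 202 in Cap-Arterial cells, 9.63 times (7.11 to 12.8) and 10.4 times (8.37 to 12.95) the other cells. *Igf2* had 8 UMIs in 6 labelled P6 cells, 5 of them in Arterial, 2 in Cap-Arterial and 1 in Cap-Venous cells. Of the 19 labelled cells with *H19*, 11 also held *Cdkn1c* (57.9%), against 159 of the 1541 cells without *H19* (10.3%), and 3 also held *Igf2*. In cells thinned to 3000 UMIs the shares for *Cdkn1c* were 5 of 11 and 87 of 1381. The arterial location of both genes enters these shares.

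*Mest* and *Grb10* had their lowest P6 values in Arterial cells, with intervals that overlap those of some other clusters. *Mest* stood at 5.06 CPM in Arterial cells (1 UMI, 0.128 to 28.2) and 13.2 in Cap-Arterial cells (11 UMIs, 6.57 to 23.5). The remaining clusters lay between 25.6 (Stalk) and 49.7 (Capillary) CPM. Relative to all other labelled cells the ratios were 0.163 (0.00410 to 0.913) in Arterial, 0.408 (0.201 to 0.741) in Cap-Arterial, 1.67 (1.21 to 2.25) in Tip and 1.69 (1.08 to 2.53) in Capillary cells. The Arterial ratio rests on 1 UMI and was 0.379 after thinning. Intervals of neighbouring clusters overlapped from Stalk to Capillary, so no order is given among those 7.

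*Grb10* stood at 30.4 CPM in Arterial cells (6 UMIs, 11.1 to 66.1), 65.8 in Primitive, 70.6 in Cap-Arterial, 77.3 in Venous, 79.8 in Stalk, 92.1 in Tip, 93.2 in Cap-Venous, 119 in Proliferative and 142 in Capillary cells (111 to 178). The Arterial interval overlapped those of Primitive, Cap-Arterial, Venous and Stalk cells, and the Capillary interval those of Proliferative, Venous and Tip cells. The Arterial interval lay below those of Tip, Cap-Venous, Proliferative and Capillary cells. The ratio to other cells was 0.326 (0.119 to 0.713) in Arterial, 1.59 (1.24 to 2.02) in Capillary and 1.38 (1.17 to 1.62) in Proliferative cells, the last being 1.13 after thinning. At P15 the Cap-Arterial ratio of *Grb10* was 0.340 (0.144 to 0.687) with published and 0.623 (0.450 to 0.843) with predicted clusters.

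*Igf2r* had its highest P6 value in Capillary cells, with an interval that overlaps those of Stalk and Venous cells. Its P6 level was 82.3 CPM in Capillary cells (43 UMIs, 59.5 to 111), 48.4 in Stalk cells (68 UMIs, 37.6 to 61.4) and between 18.1 (Primitive) and 31.6 (Venous) elsewhere. The ratio to other cells was 3.0 (2.12 to 4.16) in Capillary and 1.77 (1.33 to 2.34) in Stalk cells, and 0.569 (0.327 to 0.928) in Primitive cells. A UMI was seen in 22.1% of 149 Capillary cells and in 10.3% of 155 Primitive cells, although Capillary cells were shallower (medians of 3204 and 5148 UMIs). After thinning the Capillary ratio was 3.57. At P15, with 39 UMIs in the published clusters, the Capillary level was 9.46 CPM (1 UMI) and no published cluster had an interval away from 1. With predicted P15 clusters the ratio was 2.16 (1.44 to 3.16) in Stalk, 0.224 (0.0268 to 0.824) in Primitive and 1.19 (0.380 to 2.84) in Capillary cells.

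*Peg3*, *Ndn* and *Plagl1* were too sparse to place. *Peg3* lay between 0 CPM (Venous, 0 UMIs) and 11.5 (Capillary, 6 UMIs), and *Ndn* between 3.52 (Venous, 1 UMI) and 15.6 (Cap-Arterial, 13 UMIs), with no interval of a ratio away from 1. *Plagl1* had 19 UMIs in all labelled P6 cells, 5 of them in Cap-Arterial cells.

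Over the 5 genes with at least 50 labelled P6 UMIs and the 9 clusters, 7 of 45 ratios were at least 2 or at most 0.5, against 13.8% of all pairs of a gene and a cluster. These were *Igf2r* and *Peg3* at or above 2 in Capillary cells (8.17% of 9834 genes), *Mest* and *Grb10* at or below 0.5 in Arterial cells (15.8%), *Mest* in Cap-Arterial cells (7.20%), and *Peg3* and *Ndn* in Venous cells (12.1%). The shares in brackets are those of all genes tested in the same cluster and direction. The *Peg3* and *Ndn* ratios had intervals that included 1. At P15 the 1 gene with enough UMIs, *Grb10*, was at or below 0.5 in Cap-Arterial cells (5.04% of 5833 genes) and in the 2 Venous cells (59.7%), where it had 0 UMIs.

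**Figure D3:**
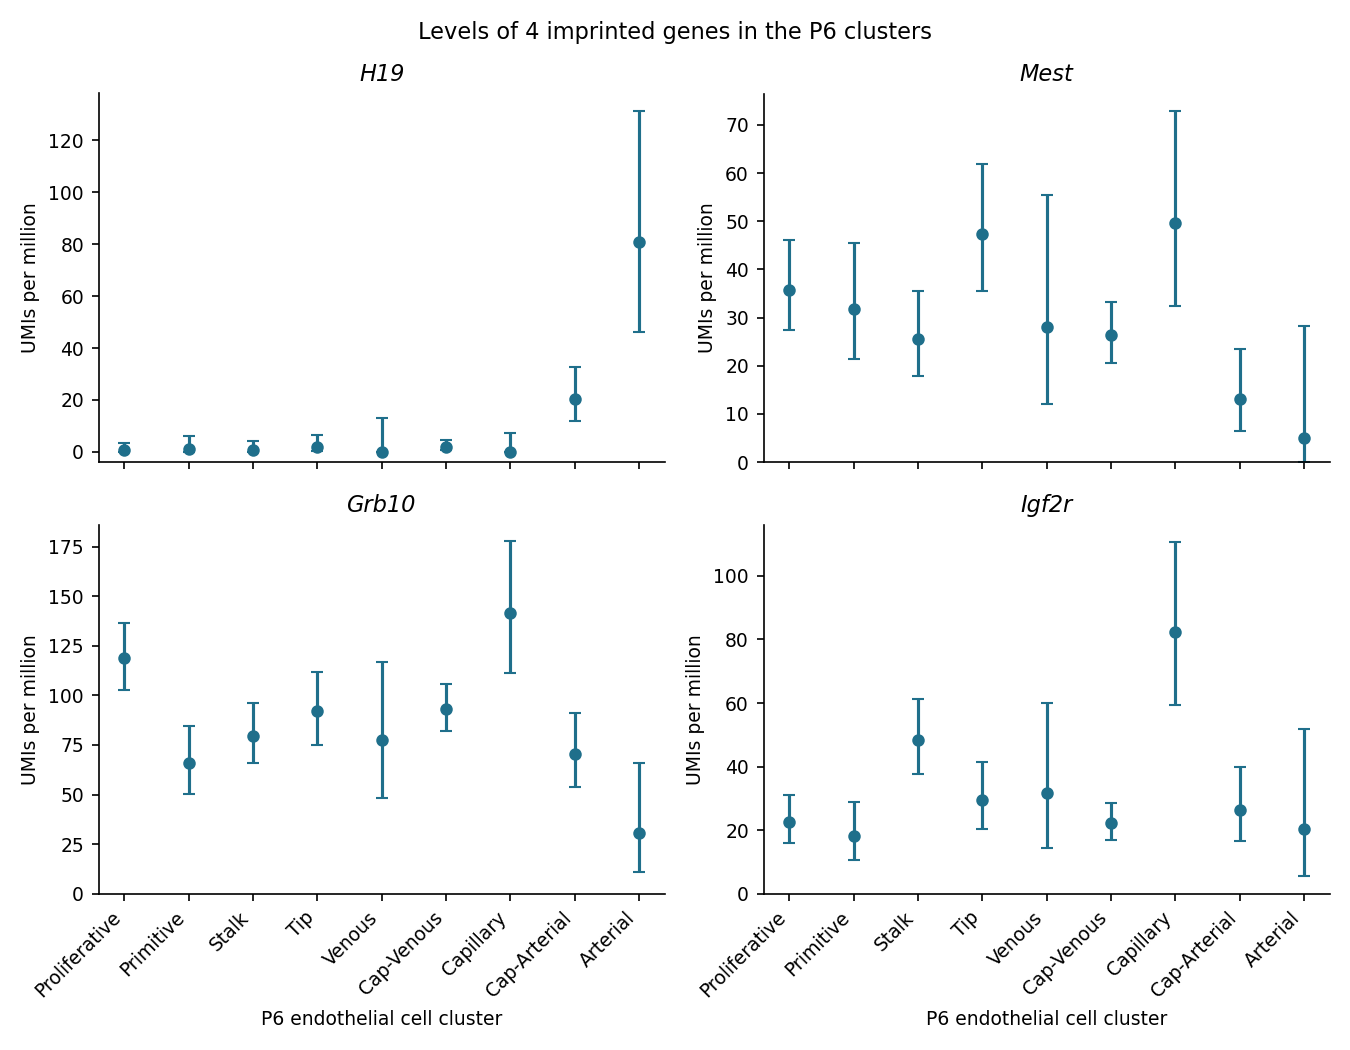
Level of *H19*, *Mest*, *Grb10* and *Igf2r* in CPM in the 9 clusters of the P6 library (40 to 414 cells); bars are exact 95% Poisson intervals. *H19* stands at 81.0 in Arterial and 20.3 in Cap-Arterial cells and under 2 elsewhere, *Mest* and *Grb10* have their lowest points in Arterial cells, at 5.06 and 30.4, and *Igf2r* its highest in Capillary cells, at 82.3, each with an interval that overlaps that of at least 1 other cluster.

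The genes whose cluster levels ran most like each gene were found by Pearson correlation of log2(CPM + 10) over the 9 P6 clusters of 1 library, against 5871 genes with at least 200 UMIs. The correlation is a description, since the 9 points share a library and the Arterial and Capillary cells weigh heavily in it. *Mest* ran most like *Tspan6* (0.987), *Hsd17b12* (0.984) and *Adprh* (0.973), and *Grb10* like *Myh10* (0.972), *Gm24270* (0.971) and *Cklf* (0.957). *Igf2r* ran most like *Fam120a* (0.926), *Smg1* (0.908) and *Myh9* (0.904). For *Peg3* they were *Crtap* (0.976), *Phf6* (0.947) and *Ipo9* (0.929), and for *Ndn* *Nck1* (0.924), *Tial1* (0.922) and *Ccm2l* (0.921).

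*H19*, under the minimum, ran most like *Gata2* (0.991), *Fbln5* (0.988) and *Stmn2* (0.983). By Spearman correlation *Card19*, *Cdc42ep5* and *Kctd20* took their places, and among genes with at least 500 UMIs only *Fbln5* remained. Among the imprinted genes themselves, *Mest* and *Grb10* had a correlation of 0.869, *H19* and *Cdkn1c* 0.939, and *Mest* and *H19* -0.902. In single cells the relation of *Mest* and *Grb10* was weak. After thinning, *Grb10* was seen in 29.5% of the 105 cells with *Mest* (21.0 to 39.2) and in 23.1% of the 1287 cells without it (20.8 to 25.5), and without thinning in 51.8% and 38.1%. At least 1 UMI of any of the 9 genes was found in 58.9% of the 1560 labelled P6 cells and, after thinning, in 38.4% of 1392.

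*Meg3* and *Dlk1*, neighbours on chromosome 12, lay mostly outside the endothelial barcodes. Barcodes were sorted by the marker list with the most UMIs, at least 10, a minimum chosen after the values were seen. At P6, 7 barcodes were led by pericyte markers (pericyte-list barcodes), 53 by retinal neural markers (neural-list barcodes) and 1870 by endothelial markers. At P15 these numbers were 72, 7 and 2027. None of the pericyte-list or neural-list barcodes carried a cluster label. This says little at either age. The study left out cells with *Neurod1*, itself in the neural list, *Cd63* or *Hbb-bt* before labels were given. At P15, in addition, 1703 of the 2141 barcodes had no label at hand. No doublet caller was run, so a barcode here can hold RNA of more than 1 cell.

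At P6 the 7 pericyte-list barcodes held 112 of 283 *Meg3* UMIs (39.6%), or 3146 CPM (2590 to 3785), and all 7 had at least 1. The 53 neural-list barcodes held 96 (33.9%), or 179 CPM, in 41.5% of them. The 1870 endothelial-list barcodes held 7, or 0.530 CPM (0.213 to 1.09), in 0.321% of them, at a median depth of 5617 UMIs against 5244 in the pericyte-list barcodes. *Meg3* was thus near 0 in the endothelial barcodes and high in the others.

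At P15 the 72 pericyte-list barcodes held 426 of 460 *Meg3* UMIs (92.6%), or 1298 CPM (1178 to 1427), in 86.1% of them, and the endothelial-list barcodes 30 UMIs, or 2.69 CPM. The pericyte-list level was 482 times the endothelial-list level (333 to 723). A ratio of at least 2 in that comparison was found for 9.83% of 10448 genes, and for 17.9% of 10517 at P6. Labelled cells held 4 *Meg3* UMIs at P6 and 3 at P15.

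*Dlk1* followed the same barcodes, with 22 of 25 UMIs at P6 and 10 of 12 at P15 in pericyte-list barcodes. It had 0 UMIs in 1560 labelled P6 cells and 1 in the 438 labelled P15 cells. *Rian*, a noncoding RNA of the same locus, had 28 of its 31 P15 UMIs in pericyte-list barcodes. The pericyte-list barcodes themselves held all 8 pericyte and mural markers at both ages, at 16627 CPM at P6 and 21338 at P15, with fibroblast markers at 702 and 521. At P15 they also held 2946 CPM of endothelial markers and 4549 of red blood cell markers.

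Part of the *Ndn*, *Peg3* and *Plagl1* UMIs lay in neural-list barcodes at P6. *Ndn* had 78 of 230 UMIs there (33.9%), at 146 CPM (115 to 182) against 10.4 (8.71 to 12.3) in endothelial-list barcodes, a ratio of 14.1 (10.5 to 18.7). *Peg3* had 24 of 99 (24.2%), a ratio of 8.23 (4.96 to 13.2), and *Plagl1* 10 of 37 (27.0%). A ratio of at least 2 in this comparison was found for 24.5% of 10840 genes. *Mest*, *Grb10* and *Igf2r* had 95.7%, 97.9% and 98.1% of their P6 UMIs in endothelial-list barcodes, and *H19* 95.4%. Endothelial-list barcodes were 94.3% of all P6 barcodes, so these shares lie near that of the barcodes themselves.

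*Grb10* and *Igf2r* were lower in the neural-list than in the endothelial-list barcodes of P6, with ratios of 0.458 (0.289 to 0.691) and 0.242 (0.0656 to 0.625). At P15 the pericyte-list barcodes held 88.4 CPM of *Igf2r* (29 UMIs, 59.2 to 127) against 18.0 in endothelial-list barcodes, a ratio of 4.90 (3.20 to 7.25), and 97.5 of *Grb10*, a ratio of 1.63 (1.10 to 2.32). They held 0 *Mest* UMIs in 72 barcodes, which allows a share of barcodes with a UMI of up to 4.17% by 3 counts, while endothelial-list barcodes had a *Mest* UMI in 2.17% of 2027. With the barcodes of both lists left out, the ratio of P15 to P6 was 0.154 for *Mest*, 0.651 for *Grb10* and 0.593 for *Igf2r*, close to the values of all filtered cells. Only 1 pericyte-list barcode at P6 and 7 at P15 were filtered cells, and 0 neural-list barcodes. Leaving out so few could hardly change the ratios, so the part of other cell types in them was not tested by this.

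**Figure D4:**
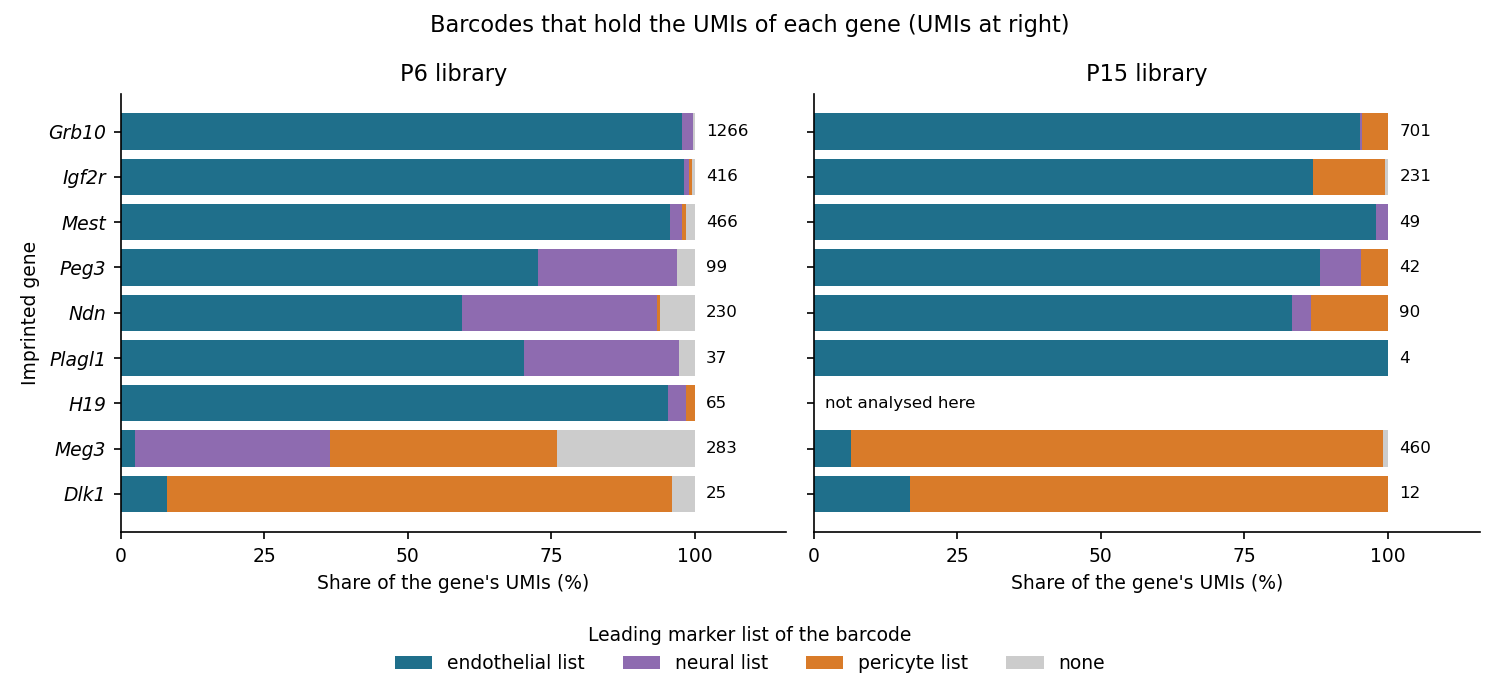
Share of each gene's UMIs (%) over all barcodes of the P6 and P15 libraries by the marker list that leads the barcode, with the number of UMIs at the right of each bar. *Grb10*, *Igf2r*, *Mest* and *H19* lie almost wholly in endothelial-list barcodes at P6, which were 94.3% of the P6 barcodes. *Meg3* lies mostly in pericyte-list barcodes at P15 (92.6%), while at P6 it is divided among pericyte-list (39.6%), neural-list (33.9%) and other barcodes. *Dlk1* lies mostly in pericyte-list barcodes at P6 (88.0%) and P15 (83.3%).

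In the 424 P6 barcodes without a cluster label, *Meg3* and *Ndn* were the 2 of 7 genes with enough UMIs that stood at least 2 times above labelled cells, against 4.55% of 10906 genes. *Meg3* stood at 64.7 CPM against 0.415, and *Ndn* at 32.0 against 9.54, a ratio of 3.35 (2.56 to 4.41). *Grb10* and *Igf2r* were alike in both, at 88.3 against 91.8 and 28.5 against 30.4 CPM. The study excluded cells with *Neurod1*, *Cd63* or *Hbb-bt* as contaminating types, so the barcodes without a label include such cells by selection. The part of that selection in the *Meg3* and *Ndn* values was not tested.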

How the data were processed

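Retinal endothelial cells of P6 and P15 mice were measured by droplet single-cell RNA sequencing, 1 library per age. The authors deposited raw UMI counts per gene identifier and barcode, without normalization. Per the labels' processing notes, Seurat 3.0 and mm10 were used by the submitters, and the aligner and annotation of these counts are not given in the sources used here. Rows were matched to symbols and coordinates through GENCODE M21 of GRCm38, where the identifier versions of *H19* and *Igf2r* differ from those of the counts. Genes that lack a row at one age were left without a value there.

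Cells were filtered by the study's exclusion criteria as read here (count limits applied to genes detected, mitochondrial share capped), and clusters were read from the table behind the published cell map, whose copy here holds all P6 and the first P15 cells (Primordial was read as Primitive). For shares, cells were also thinned to 3000 UMIs. No doublet caller was run. UMIs were summed over cells and given as CPM, per 1000000 UMIs of the same cells, with exact Poisson intervals. Ratios have conditional binomial intervals and shares Clopper-Pearson intervals, all at 95%, with a floor of 3 counts. With 1 library per age no test was made. Genes with at least 50 UMIs were counted at 2-fold. Clusters of P15 cells without a published label were predicted from 15 neighbours on 13 principal components, with the 9 genes left out, and published labels were kept. The named genes were the 9 members, the other imprinted genes past 2-fold, the 3 genes with the most similar cluster pattern for each, and the other receptors of the insulin-like growth factor axis. Members and lists were chosen with earlier results of these data known. Interval code was tested on simulated data. Python 3.11.15, numpy 2.4.6, scipy 1.17.1, pandas 2.3.3 and scikit-learn 1.9.0 were used.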

Additional observations from a re-analysis of the deposited data

How the results depend on the processing

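The 2 genes with a P15 to P6 ratio of at most 0.5 became 1 (*Mest* alone) in labelled cells, 1 without the upper limit on genes per cell, 1 with P15 clusters weighted as at P6, and 5 when 1.5-fold was counted. At 1.5-fold, 11.8% of the 10972 genes were lower at P15. The other changed counts given here have no share of all genes beside them, so they show only how the counts move. The *Mest* ratio itself lay between 0.127 and 0.254 over 9 alternatives. The 7 cluster ratios past 2-fold at P6 became 12 after thinning, 20 at 1.5-fold and 16 with genes of at least 20 UMIs, and the 2 at P15 became 1 with predicted clusters. The share of labelled P6 cells with any of the 9 genes, 58.9%, was 38.4% after thinning. The 2 genes high in barcodes without a label became 4 in barcodes with *Neurod1*, *Cd63* or *Hbb-bt*, 0 in those over the gene limit alone, and 1 without pericyte-list and neural-list barcodes, an alternative added after seeing the data. Of 15 genes with a like pattern, 1 remained by Spearman correlation. The share of *Mest* cells with *Grb10*, 29.5%, was 51.8% without thinning, also added later. Of 141 alternatives for 23 single-gene values, 131 stayed within the interval of the value and 10 moved. The ratios of *Meg3* (1.32) and *Dlk1* (0.519), whose intervals include 1, changed direction: *Meg3* was 0.774 as a mean over cells and 0.657 without the list barcodes, and *Dlk1* 1.07 after thinning and 1.49 as a mean over cells. Scaling by the median ratio over 8746 genes shifted all ratios by 0.12 on the log2 scale.

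*Plagl1*, *Dlk1* and *H19* had fewer than 50 UMIs in the cells compared and enter no count of genes. No paired analysis was possible because each age is 1 library.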

Other observations

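Among the other imprinted genes, some values that pass no 2-fold limit were chosen here after they were seen. *Sgce*, which encodes epsilon-sarcoglycan, stood at 50.6 CPM at P6 and 25.4 at P15, a ratio of 0.501 (0.419 to 0.598), and *Peg12*, which lies near *Ndn*, had a ratio of 0.522 (0.397 to 0.682). *Snrpn*, a splicing protein gene of the same chromosome, had a ratio of 1.90 (1.32 to 2.76), and *Blcap* 1.82 (1.51 to 2.20). Genes of the imprinted region around *Ndn* therefore stood on both sides of 1 in these libraries.

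*Kcnq1ot1*, the antisense RNA of the *Cdkn1c* domain, had 1156 and 955 UMIs, 151 and 130 CPM, a ratio of 0.857 (0.786 to 0.935). In the same filtered cells *Cdkn1c* had a ratio of 2.70.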
